A study of Mus musculus with 4 samples.

Results

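The 9 genes studied here are named for macrophages that gather in and around tumors, and were followed in mouse lung: Nos2, Spp1, Apoe, Trem2, Csf1r, Gpnmb, C1qa, C1qb and C1qc. They were chosen by symbol, and each matched 1 of the 23282 rows of the deposited files, so that 9 rows were followed. A mean normalized read count of at least 4 over the libraries was reached by 15164 rows, and by 8 of the 9 genes (all but Nos2, with a mean of 3.17). The lungs came from male CDF1 mice in 4 groups, named for exercise (E) and tumor (T). E(-)T(-) is the normal control. Exercise alone gives the normal exercise group E(+)T(-), tumor alone the cancer control group E(-)T(+), and the cancer exercise group E(+)T(+) had both. CT26 cells, a colorectal carcinoma line of the mouse, were injected into the tail vein of both cancer groups, and both exercise groups ran at high intensity on a motorized treadmill. The design gives 10 mice per group, but only 1 lung library was analysed for each group, and the sources used here do not state for the lung whether it came from a single mouse or a pool. For skeletal muscle they describe a representative mouse of each group, and they call the lung work similar. The age is labelled as postnatal day 28. By the methods that was about the age at purchase, and not the age at sampling. With 1 library per group there is no replicate check: no difference between groups carries a p-value, and every interval is an exact (Clopper-Pearson) 95% interval that covers counting error only, since no molecular identifiers are named for these libraries.

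Macrophages take on different gene programs in injured or tumor-bearing tissue. Inducible nitric oxide synthase, encoded by Nos2, makes nitric oxide from arginine and is used as a marker of classically activated macrophages. Osteopontin (Spp1) and apolipoprotein E (Apoe) are secreted, the receptor TREM2 senses lipids and apolipoproteins, and the CSF1 receptor (Csf1r) carries the survival signal of the lineage. GPNMB is a glycoprotein of lysosomes and the cell surface that is made with the lysosomal program, and the C1q chains A, B and C assemble into the recognition part of the first complement component. None of these genes belongs to macrophages alone: Spp1 and Apoe, for example, are also made by epithelial, stromal and carcinoma cells. In a whole lung sample, more cells of a type and more RNA per cell cannot be told apart.

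The upstream sequences of the C1q genes and of Spp1 are shown because the C1q chains differed in the same direction in both tumor comparisons and between the tumor-bearing lungs, while Spp1 changed more than any other of the 8 genes past this minimum between the tumor-bearing groups. The C1q genes lie in a cluster of 18.7 kb on chromosome 4 (chr4:136880126-136898844, RefSeq, GRCm38.p6, the mm10 assembly). The RefSeq promoter table held 6 of the 9 genes (C1qb, C1qc, Spp1, Gpnmb, Apoe and Trem2) with 9 start sites. Shown are 250 bases before the start site of C1qb (chr4:136886201-136886450, minus strand), of C1qc (chr4:136892915-136893164, minus strand) and of the upstream start of Spp1 (chr5:104434861-104435110, plus strand), each 5′ to 3′ along its gene. The last bases of the C1qc window lie inside the annotated span of the gene, which has another start further upstream. Capitals mark GAGGAA, the core of sites for PU.1 and its relatives (TTCCTC on the other strand), and CATGTG, an E box bound by the MITF and TFE family (CACATG on the other strand).
C1qb: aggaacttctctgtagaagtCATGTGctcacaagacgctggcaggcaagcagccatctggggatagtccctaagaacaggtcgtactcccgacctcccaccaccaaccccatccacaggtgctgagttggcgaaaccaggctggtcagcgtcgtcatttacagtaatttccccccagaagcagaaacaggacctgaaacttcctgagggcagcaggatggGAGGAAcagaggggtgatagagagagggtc
C1qc: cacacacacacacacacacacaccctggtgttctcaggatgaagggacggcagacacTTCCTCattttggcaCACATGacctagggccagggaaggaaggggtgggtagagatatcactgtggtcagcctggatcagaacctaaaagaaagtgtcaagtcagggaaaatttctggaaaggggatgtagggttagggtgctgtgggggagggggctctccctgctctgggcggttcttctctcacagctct
Spp1: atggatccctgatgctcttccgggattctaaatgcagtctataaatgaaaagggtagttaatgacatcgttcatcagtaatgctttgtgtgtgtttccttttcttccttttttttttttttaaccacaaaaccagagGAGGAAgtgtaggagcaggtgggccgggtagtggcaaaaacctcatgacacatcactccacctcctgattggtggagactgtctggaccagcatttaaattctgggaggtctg

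GAGGAA was present in all 3 of these windows, and ended 25 bases before the start in C1qb, 188 bases before it in C1qc on the other strand, and 108 bases before it in Spp1. Of the other windows, those of Trem2 and of Apoe starts 1 and 3 held it on either strand. The windows of Apoe start 2, Spp1 start 2 and Gpnmb held it on neither strand. CATGTG was present in C1qb and C1qc only. Of 32851 promoter windows of this length, 23.3% held GAGGAA and 12.3% held CATGTG on either strand. The AP-1 letters TGACTCA (4.46% of windows) and the E box CACGTG (6.02% of windows) were in none of the 9 windows. A match describes these letters and is no evidence of a bound site.

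The libraries held 13017365 reads in the normal control, 12780375 in the normal exercise, 9354562 in the cancer control and 13367934 in the cancer exercise lung, and a count of 0 allows up to 3 reads, or 0.224 to 0.321 CPM. The libraries stood apart in what else they held. Hemoglobin genes took 14.3% of the reads in the normal control, 14.2% in the normal exercise, 1.43% in the cancer control and 31.4% in the cancer exercise lung. A set of 9 genes was read at 500 or more normalized counts in the cancer control and not at all in the normal control. They, the keratin gene Krt20 and the retinoic acid binding protein gene Crabp1 among them, were found in the normal exercise lung, which had received no tumor cells, at 0.642% to 2.18% of their cancer control level (median 1.47%). Where those reads came from was not tested, and the effect of taking out their median share is given below for the genes it moved past a counting interval (Spp1, Apoe, C1qa and C1qc) and for C1qb.

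The 9 genes together took 0.0679% of the reads in the normal control lung and 0.0756% in the normal exercise lung. They took 0.334% in the cancer control lung and 0.127% in the cancer exercise lung. Apoe alone gave 51.0% to 71.3% of these reads, so it weighs most in the sum and the genes are described singly. Levels below are log2(normalized read count + 1), as deposited, and differences are differences of these values between 2 libraries.

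**Figure D1:**
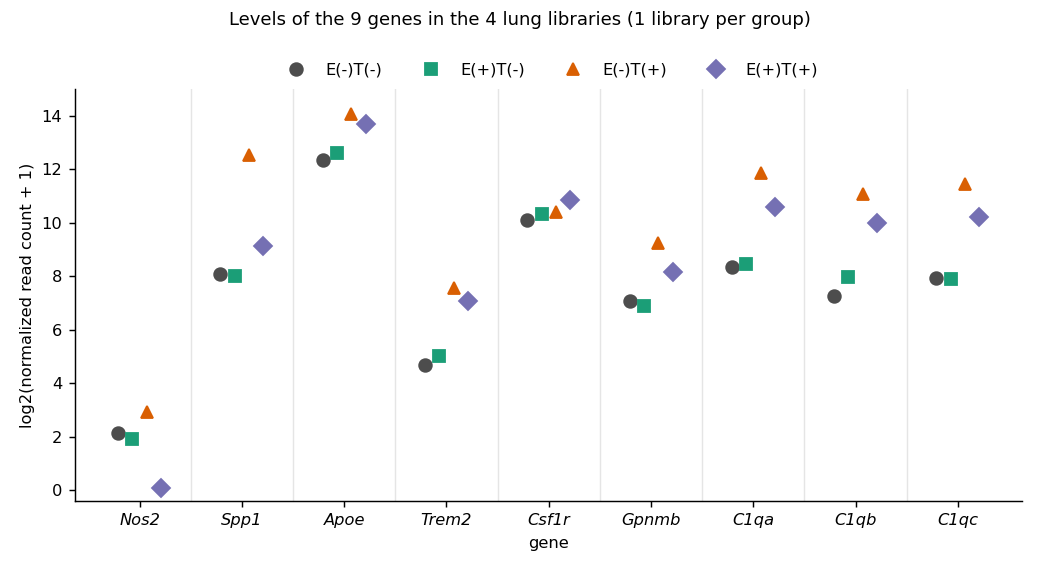
Level of each gene, as log2(normalized read count + 1), in the 4 lung libraries. Each symbol is 1 library, with no error bar because there are no replicates. E(-)T(+) was highest for 7 of the 8 genes past the minimum (all but Csf1r), and Nos2 stayed under 3 on this scale in all 4 libraries.

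Nos2, the inducible nitric oxide synthase gene (chr11:78920787-78960226), was near the limit of detection in every library, with 4 reads in the normal control, 3 in the normal exercise, 6 in the cancer control and 0 in the cancer exercise lung. No order could be read among the first 3 libraries, whose intervals of difference all include 0. Between the tumor-bearing lungs the exercised one was at least 1.87-fold lower when its 0 reads are taken as the floor of 3 and the 6 reads as exact. With counting error in both, the difference could be as small as -0.14.

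Spp1, which encodes osteopontin, a secreted phosphoprotein of bone and of wound and tumor macrophages (chr5:104435111-104441053), spanned the widest range of the 9 genes and was by far highest in the cancer control lung. Its level was 8.08 in the normal control, 8.02 in the normal exercise, 12.52 in the cancer control and 9.13 in the cancer exercise lung, from 318, 281, 5363 and 477 reads. The tumor-free lungs did not differ beyond counting error (-0.07, interval -0.30 to 0.17). Without exercise Spp1 was 21.7-fold higher in the tumor-bearing lung, by 4.44 (4.28 to 4.61), and 254 rows had a larger difference upward. With exercise it was 2.16-fold higher, by 1.11 (0.90 to 1.33). The exercised tumor-bearing lung was 10.5-fold lower than the resting one, a difference of -3.40 (-3.54 to -3.26), and 182 rows had a larger difference downward. If the median share of its cancer control level were taken out of E(+)T(-), 86.3 of its 258 normalized counts there would go. The exercise difference without tumor would then move from -0.07 to -0.65. The tumor difference with exercise would move from 1.11 to 1.69. With the lowest share these differences would be -0.29, which is within its counting interval, and 1.34. With the highest share they would be -1.05 and 2.09. The lowest and highest shares were alternatives chosen after seeing the data.

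Apoe, a lipoprotein component that binds receptors of the LDL family and TREM2 (chr7:19696244-19701310), had the most reads of the 9 genes in every library. Its level was 12.36 in the normal control, 12.63 in the normal exercise, 14.09 in the cancer control and 13.70 in the cancer exercise lung, from 6164, 6890, 15914 and 11359 reads. The range was narrow beside that of Spp1. Without exercise it was 3.33-fold higher in the tumor-bearing lung, by 1.74 (1.69 to 1.78), and with exercise 2.10-fold higher, by 1.07 (1.03 to 1.11). Exercise went with a small increase in tumor-free lungs, 0.27 (0.22 to 0.32), and a small decrease in tumor-bearing lungs, -0.39 (-0.43 to -0.36), both under 2-fold. Taking the median share of the cancer control level out of E(+)T(-) moved the first of these to 0.21, and the tumor difference with exercise to 1.13. As deposited, that tumor difference was close to the 2-fold limit, and it was 0.98 when the libraries were scaled by their totals without the hemoglobin genes.

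Trem2, the lipid-sensing receptor gene (chr17:48346401-48352276), had the fewest reads in all of the 8 genes past the minimum. Its level was 4.67 in the normal control, 5.01 in the normal exercise, 7.55 in the cancer control and 7.08 in the cancer exercise lung, from 29, 34, 170 and 115 reads. Both tumor-bearing lungs were above both tumor-free lungs. The tumor difference was 2.87 (2.34 to 3.54), or 7.33-fold, at rest and 2.07 (1.54 to 2.70), or 4.21-fold, with exercise. Exercise made a difference of 0.33 (-0.42 to 1.11) without tumor, which includes 0, and of -0.47 (-0.82 to -0.12) with tumor, which is under 2-fold.

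Csf1r, the receptor for CSF1 and IL-34, was the exception among the 8 genes. Its level was 10.12 in the normal control, 10.35 in the normal exercise, 10.42 in the cancer control and 10.87 in the cancer exercise lung, from 1311, 1416, 1248 and 1601 reads. It passed 2-fold in none of the 4 comparisons, and E(+)T(-) and E(-)T(+) did not differ beyond counting error (0.07, interval -0.04 to 0.18). Tumor made a difference of 0.30 (0.18 to 0.41) at rest and 0.53 (0.42 to 0.63) with exercise. Exercise made a difference of 0.22 (0.11 to 0.33) without tumor and of 0.45 (0.35 to 0.56) with tumor, which turned to -0.16 when the libraries were scaled by their totals alone.

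Ratios to Csf1r within a library need no scaling between libraries, although Csf1r itself was 1.68-fold higher in the cancer exercise than in the normal control lung (0.75, interval 0.64 to 0.85). For each read of Csf1r there were 0.243 reads of Spp1 in the normal control, 0.198 in the normal exercise, 4.30 in the cancer control and 0.298 in the cancer exercise lung. Spp1 per Csf1r in the cancer exercise lung (interval 0.268 to 0.330) thus lay near the normal control (0.214 to 0.274) and far under the cancer control (4.04 to 4.57). The level of Spp1 was 1.04 higher (0.84 to 1.25) in the cancer exercise than in the normal control lung, so that part of this nearness is the higher Csf1r. Gpnmb per Csf1r was 0.120, 0.0911, 0.446 and 0.154 with the normal control first, then normal exercise, cancer control and cancer exercise. C1qa per Csf1r was 0.295, 0.268, 2.71 and 0.824 in the same order, and so stayed well above the tumor-free libraries in E(+)T(+). Trem2 per Csf1r was 0.0221, 0.0240, 0.136 and 0.0718, and Apoe per Csf1r 4.70, 4.87, 12.8 and 7.09. A ratio within a library shows unequal change and not which of the genes changed.

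Gpnmb (chr6:49036518-49058182) was higher in both tumor-bearing lungs. Its level was 7.07 in the normal control, 6.90 in the normal exercise, 9.25 in the cancer control and 8.17 in the cancer exercise lung, from 157, 129, 556 and 246 reads. The tumor-free lungs did not differ beyond counting error (-0.17, interval -0.52 to 0.17). The tumor difference was 2.18 (1.93 to 2.46), or 4.54-fold, at rest and 1.27 (0.97 to 1.60), or 2.42-fold, with exercise. The exercised tumor-bearing lung was 2.11-fold lower than the resting one, a difference of -1.08 (-1.31 to -0.86), an interval that reaches across the 2-fold limit.

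The C1q chains gave the same order of the tumor-bearing lungs for each chain. C1qa had a level of 8.37 in the normal control, 8.45 in the normal exercise, 11.86 in the cancer control and 10.59 in the cancer exercise lung, from 387, 380, 3387 and 1319 reads. C1qb had a level of 7.28, 7.98, 11.09 and 9.99 in the same order, from 182, 273, 1994 and 868 reads. C1qc had a level of 7.95, 7.91, 11.47 and 10.20, from 290, 261, 2583 and 1008 reads. Every chain was highest in the cancer control, intermediate in the cancer exercise and lowest in the tumor-free lungs. The tumor difference at rest was 3.49 for C1qa (3.34 to 3.65), 3.81 for C1qb (3.60 to 4.05) and 3.52 for C1qc (3.35 to 3.70), or 11.3-, 14.1- and 11.4-fold. With exercise it was 2.14 for C1qa (1.98 to 2.31), 2.01 for C1qb (1.82 to 2.22) and 2.29 for C1qc (2.10 to 2.50). Between the tumor-bearing lungs exercise went with lower levels, with differences of -1.27 for C1qa (-1.36 to -1.17), -1.11 for C1qb (-1.22 to -0.99) and -1.26 for C1qc (-1.37 to -1.16).

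The chains parted most between the tumor-free lungs. C1qb was 1.62-fold higher with exercise there, by 0.70 (0.42 to 0.98), while C1qa (0.09, interval -0.12 to 0.29) and C1qc (-0.04, interval -0.29 to 0.21) did not differ beyond counting error. C1qb made up 21.2% of the C1q reads in E(-)T(-) (interval 18.5% to 24.1%) and 29.9% in E(+)T(-) (26.9% to 33.0%), against 25.0% in E(-)T(+) and 27.2% in E(+)T(+). With the median share of the cancer control level taken out of E(+)T(-), the C1qb difference was 0.50, that of C1qa -0.16 and that of C1qc -0.31, the latter pair outside the intervals above. The tumor difference with exercise then moved to 2.39 for C1qa and 2.57 for C1qc. The lowest share was an alternative chosen after seeing the data. With it the exercise difference without tumor was -0.02 for C1qa and -0.15 for C1qc, both within the intervals above. C1qa made up 41.3% to 45.1% of the C1q reads and C1qc 28.6% to 33.8%. The libraries prime at the poly(A) tail, so that these shares carry no term for transcript length.

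**Figure D2:**
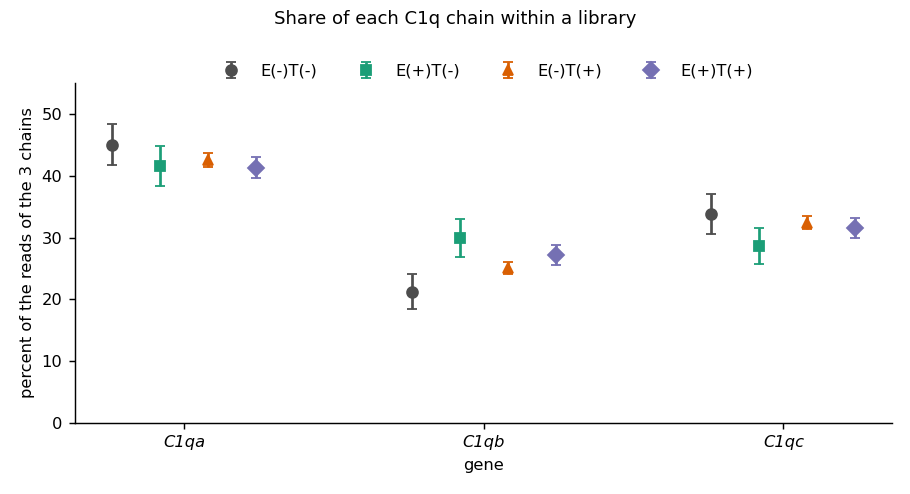
Share of each chain among the C1q reads of a library, in percent, with exact 95% intervals for counting error (bars). Each symbol is 1 library. C1qb moved from 21.2% in E(-)T(-) to 29.9% in E(+)T(-), with bars that do not meet.

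With tumor and no exercise, 7 of the 8 genes past the minimum were 2-fold or more higher (all but Csf1r) and none lower, where 20.6% of all 15164 rows were higher and 25.7% lower, and the median of the 8 was 3.18 against -0.03 over all rows. With tumor and exercise against exercise alone, the same 7 genes were higher, where 14.9% of all rows were, and none lower, where 13% of all rows were, with a median of 1.64 against 0.00. With exercise in tumor-bearing lungs, 5 were lower (Spp1, Gpnmb, C1qa, C1qb and C1qc) and none higher, where 17.7% of all rows were lower and 24.3% higher, with a median of -1.09 against 0.01. With exercise in tumor-free lungs, none of the 8 was higher, where 5.28% of all rows were, and none was lower, where 4.7% were, with a median of 0.16 against 0.00. The comparisons share libraries, so their counts are not independent of each other. The tumor comparison with exercise does not use the E(-)T(+) library, but whether E(+)T(+) holds material of that library was not tested. Scaled by library totals alone, which moves the median of all rows to -0.41 in that comparison, Spp1 (0.70), Apoe (0.66) and Gpnmb (0.86) were under 2-fold and 4 genes remained. The same scaling moves the median of all rows to -0.60 between the tumor-bearing lungs, and 7 of the 8 genes were then lower there, with Trem2 (-1.07) and Apoe added.

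**Figure D3:**
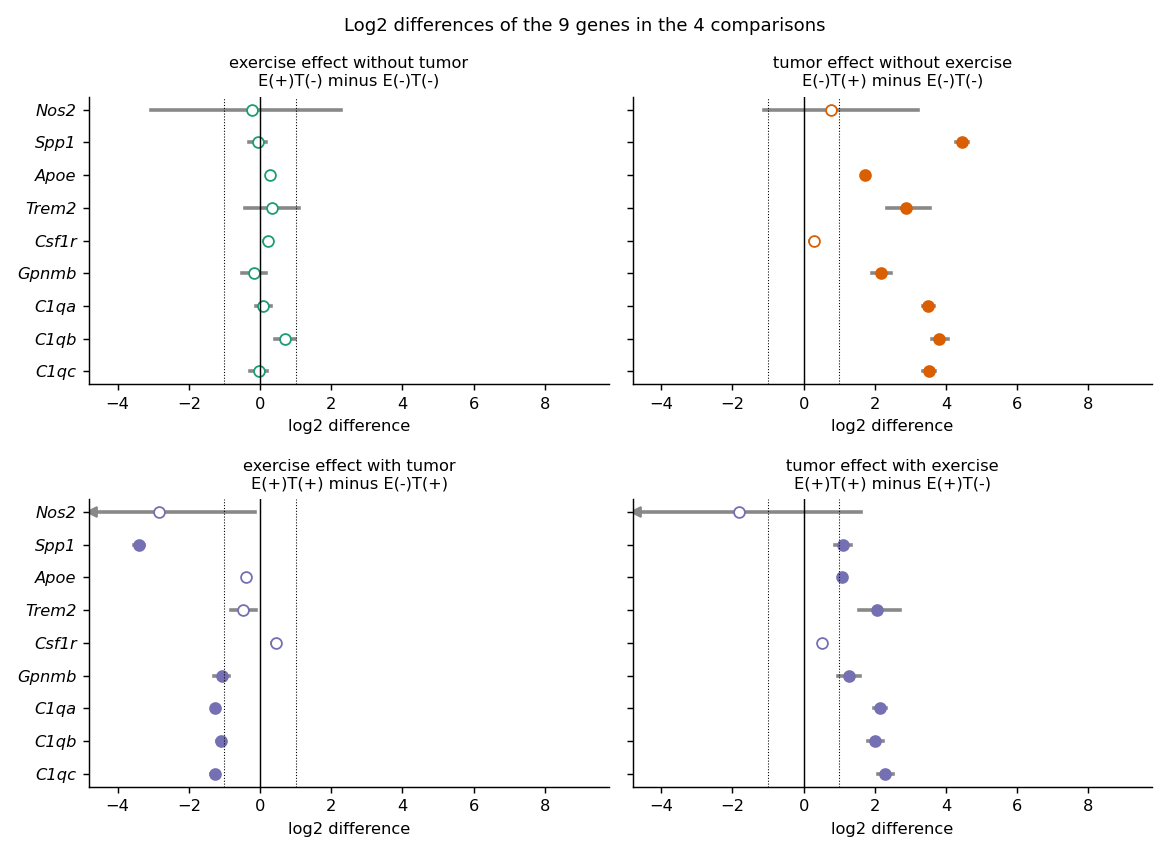
Log2 difference of each gene in the 4 comparisons (horizontal axis, first-named group minus second), 1 library against 1. Bars are exact 95% intervals for counting error, filled points are 2-fold or more among the 8 genes past the minimum, dotted lines mark 2-fold, and an arrow marks an interval without a lower end. At rest the tumor differences ran from 0.30 for Csf1r to 4.44 for Spp1.

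The genes kept different parts of their cancer control level in the cancer exercise lung. In E(+)T(+), Spp1 was at 9.49% of its E(-)T(+) normalized count. The C1q chains were at 41.6% (C1qa), 41.6% (C1qc) and 46.4% (C1qb), and Gpnmb at 47.2%. Trem2 was at 72.2%, Apoe at 76.2% and Csf1r at 137%. Spp1 was thus lowest, the C1q chains and Gpnmb were in the middle, and Trem2, Apoe and Csf1r were highest. The 9 genes found in E(-)T(+) and not in E(-)T(-) served above to measure shared material. In E(+)T(+) they were at 3.89% to 28.5% of their E(-)T(+) level (median 13.6%). They had been picked for 500 or more normalized counts in E(-)T(+), the level these percents are taken of. That choice by itself can lower the percents, so their range cannot set Spp1 apart from the other 7 genes.

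**Figure D4:**
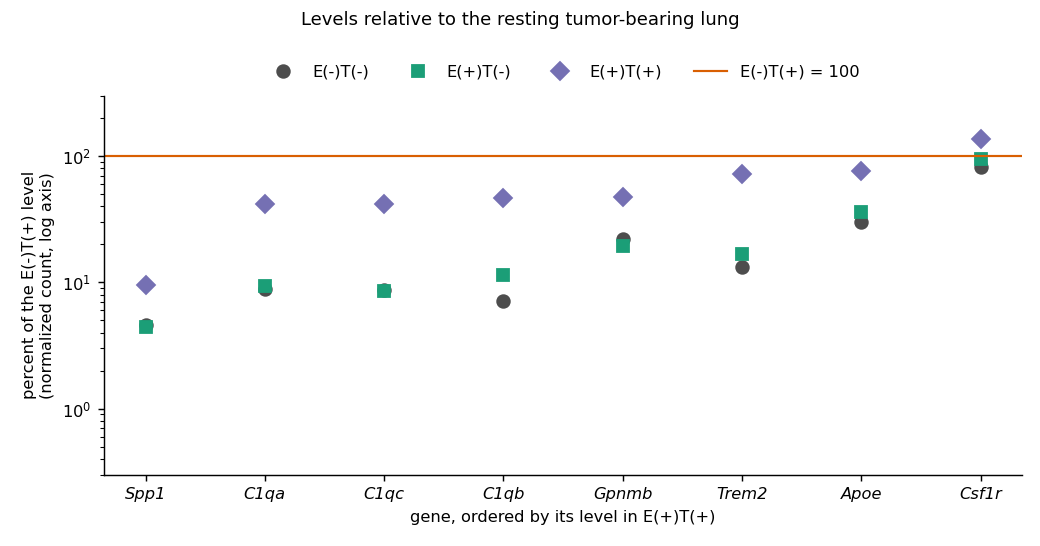
Normalized count of each gene as a percent of its E(-)T(+) level (log axis), for the other 3 libraries. Genes are ordered by their level in E(+)T(+). Spp1 (9.49%) is lowest there among the 8 genes past the minimum, and Csf1r (137%) lies above the line at 100.

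The genes most like each of the 8 in pattern were ranked among 11216 rows by the Euclidean distance between centred log2 levels over the 4 libraries, so that each rests on 4 values and shares the libraries and their depth. C1qa and C1qc were each other's nearest gene, at 0.125. The next for both was Dbf4, which encodes the activator of the CDC7 replication kinase, at 0.229 and 0.219, and C1qb had Tuba1c, an alpha tubulin gene, at 0.327 and Dbf4 at 0.371. Nearest to Spp1 were Olfml2b (0.127), the N-cadherin gene Cdh2 (0.267) and Btbd11 (0.313). Trem2 had the chromatin protein gene Hmgb2 (0.229), Gpnmb had the glucokinase gene Adpgk (0.0956) and the cyclooxygenase 1 gene Ptgs1 (0.107), Apoe had Eif2b2 (0.0781), and Csf1r had Arid5b (0.0483). None of these but the C1q chains is among the 9 genes.

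Pathway partners of the enzymes, ligands and receptors lay on both sides of 0. Their counts with tumor at rest stand beside 20.6% of all rows 2-fold higher and 25.7% lower, and those between the tumor-bearing lungs beside 24.3% higher and 17.7% lower. Of 12 genes of arginine and nitric oxide metabolism past the minimum, 5 were 2-fold higher and 2 lower in the resting tumor-bearing lung, with a median of 0.42. Odc1, which encodes the ornithine decarboxylase that begins polyamine synthesis, had levels of 8.14, 8.87, 10.98 and 9.88 with the normal control first, then normal exercise, cancer control and cancer exercise, and so differed by 2.85 with tumor at rest. The spermidine synthase gene Srm differed by 2.69, and the arginine transporter gene Slc7a2 by -2.54. Between the tumor-bearing lungs, 4 of the 12 were lower with exercise and 1 higher, with Odc1 at -1.10 and Srm at -1.49.

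Of the 7 osteopontin receptor genes and relatives past the minimum, none was 2-fold higher and 2 were lower in the resting tumor-bearing lung (the integrin genes Itga4, -1.45, and Itga9, -1.24). Itgb3, the beta chain of an osteopontin-binding integrin, was highest where Spp1 was not, at 11.28 in E(+)T(+) against 8.06 in E(-)T(+). The integrin alpha chain gene Itgav of the same list did not rise with it, at 8.05 in E(+)T(+) against 8.44 in E(-)T(+). Which cells carried Itgb3 was not tested. Of 11 APOE receptors and lipoprotein relatives, 6 were higher and 2 lower with tumor at rest, with a median of 1.25. Apoc2, the cofactor of lipoprotein lipase, went from 3.23 in E(-)T(-) to 7.77 in E(-)T(+) and 8.35 in E(+)T(+). Apoc1, its neighbour in the Apoe cluster, differed by -1.53 with tumor at rest, and Nr1h3, which encodes the sterol receptor LXR alpha, by -2.98.

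Of 20 genes of the TREM2 and lipid-handling program, 6 were higher and 5 lower with tumor at rest, with a median of -0.35, shares of 30% and 25% that are near those over all rows. The cathepsin L gene Ctsl was higher by 3.86 with tumor at rest and differed by -2.73 with exercise in the tumor-bearing lungs, beside 4.44 and -3.40 for Spp1. The integrin gene Itgax (-4.63) and the fatty acid transporter gene Cd36 (-3.65) were lower with tumor at rest, and in the normal lung these are also genes of alveolar macrophages and of endothelium. Of 12 genes of the CSF1 receptor axis, 1 was higher and 2 lower with tumor at rest. The higher gene was Il34, a ligand of the CSF1 receptor, with levels of 8.19, 7.94, 11.36 and 8.63, so that the ligand differed by 3.17 while the receptor differed by 0.30. The lower genes were the stem cell factor receptor gene Kit (-3.86) and the myeloid transcription factor gene Cebpa (-1.28).

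Of 17 complement genes beyond C1q, 4 were higher and 8 lower with tumor at rest, with a median of -0.87. C3ar1, which encodes the receptor for the C3a fragment, was higher by 3.03, and C6 (-2.70) and C2 (-2.63), which act after C1q in the cascade, were lower. With exercise in tumor-bearing lungs 12 of the 17 were higher and 1 lower, but most other lists also held more genes higher than lower there, such as the CSF1 receptor axis (7 of 12 higher and 2 lower), alternative activation (9 of 16 and 2) and classical activation (9 of 13 and none). Of 16 genes of alternative activation 5 were higher and 5 lower with tumor at rest (31.3% each way), among them the folate receptor gene Folr2 (3.34), the lectin gene Mgl2 (-4.50) and the chemokine gene Ccl17 (-2.36). Of 13 genes of classical activation 5 were higher and 5 lower (38.5% each way), among them Cxcl10 (3.29), Ccl5 (-2.30) and Irf1 (-1.70).

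The labelled tissue and the lineage were checked against lists of markers. All 20 genes of macrophage and monocyte identity passed the minimum and none was at 0 reads in any library, and their summed normalized counts were 16753, 17439, 13153 and 29169 with the normal control first, then normal exercise, cancer control and cancer exercise. With tumor at rest 5 of the 20 were higher and 1 lower (25% and 5%, beside 20.6% and 25.7% of all rows), with a median of 0.61, and the named ones were Itgam (4.22), the scavenger receptor gene Cd163 (3.27) and Ms4a7 (2.83). With tumor and exercise 14 of the 20 were higher and none lower, beside 14.9% and 13% of all rows. With exercise in tumor-bearing lungs 9 were higher and 2 lower, beside 24.3% and 17.7% of all rows, with a median of 0.58. The sum was lowest in E(-)T(+) through the lysozyme gene Lyz2 alone, with normalized counts of 9325, 10050, 3179 and 5144. The other 19 genes summed to 7428, 7389, 9973 and 24024, so that without Lyz2, an alternative chosen after seeing the data, both tumor-bearing lungs were above both tumor-free lungs and E(+)T(+) was highest.

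Other cell types moved with the tumor and exercise comparisons, and their part in the results was not tested. The counts of markers stand beside 20.6% of all rows higher and 25.7% lower with tumor at rest, 24.3% higher and 17.7% lower with exercise in tumor-bearing lungs, and 5.28% higher with exercise in tumor-free lungs. Of 11 alveolar macrophage markers, 10 were lower and 1 higher with tumor at rest, and the list summed to 7413, 6247, 1376 and 4176. The higher one was the scavenger receptor gene Marco, by 4.27, while Ear1 was at -4.57 and the fatty acid binding protein gene Fabp1 was at 0 reads in E(-)T(+) against 257 in E(-)T(-). Of 11 neutrophil markers 10 were higher with tumor at rest and 10 higher with exercise in tumor-bearing lungs. With exercise in tumor-free lungs 8 were higher (median 1.61), as they were with the median share taken out, and the list summed to 4076, 12480, 11991 and 210587, with Elane at 0 reads in both tumor-free lungs. Ltf, a neutrophil granule gene, was highest in the cancer control, at 7.07, 6.83, 10.74 and 9.34, while Mmp8 (13.00) and Ngp (11.57) were highest in the cancer exercise lung. Of 10 dendritic cell markers 7 were lower and 1, the lectin gene Clec10a (levels of 6.70 in E(-)T(-) and 8.20 in E(-)T(+)), higher with tumor at rest, and the list summed to 761, 575, 445 and 707, with Cd209a at 0 reads in E(-)T(+). Without Clec10a the sums were 659, 506, 153 and 510.

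The structural cells of the lung gave the lowest sums in the cancer control, and the same shares over all rows apply to their counts. Of 12 alveolar epithelium markers 11 were lower with tumor at rest, and the list summed to 237323, 286116, 36168 and 192050. Of 10 endothelium markers all 10 were lower, with sums of 30185, 31725, 4100 and 30577. Of 9 T cell markers 8 were lower, with sums of 1245, 1007, 130 and 803 and Cd3g at 0 reads in E(-)T(+). Of 10 genes of cell division all 10 were higher with tumor at rest and 9 lower with exercise in tumor-bearing lungs, while with exercise in tumor-free lungs 4 were higher and none lower (median 0.95, beside 5.28% of all rows higher), with sums of 491, 901, 10760 and 3532 and Bub1 at 0 reads in E(-)T(-). The median share of the cancer control level was then taken out of E(+)T(-), an alternative planned for the 9 genes and not for the lists. Only Bub1 of those 4 was still 2-fold higher. Of 9 carcinoma and intestinal epithelium markers 2 (Krt20 and Crabp1) were higher (22.2%, near the 20.6% of all rows) and 5 lower with tumor at rest, with sums of 7084, 8596, 17031 and 12468. Most of the cancer control sum came from Crabp1 (11480 normalized counts) and Krt20 (2954), both at 0 reads in E(-)T(-). Cdx2 and Lgals4 were not detected in any library.

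**Figure D5:**
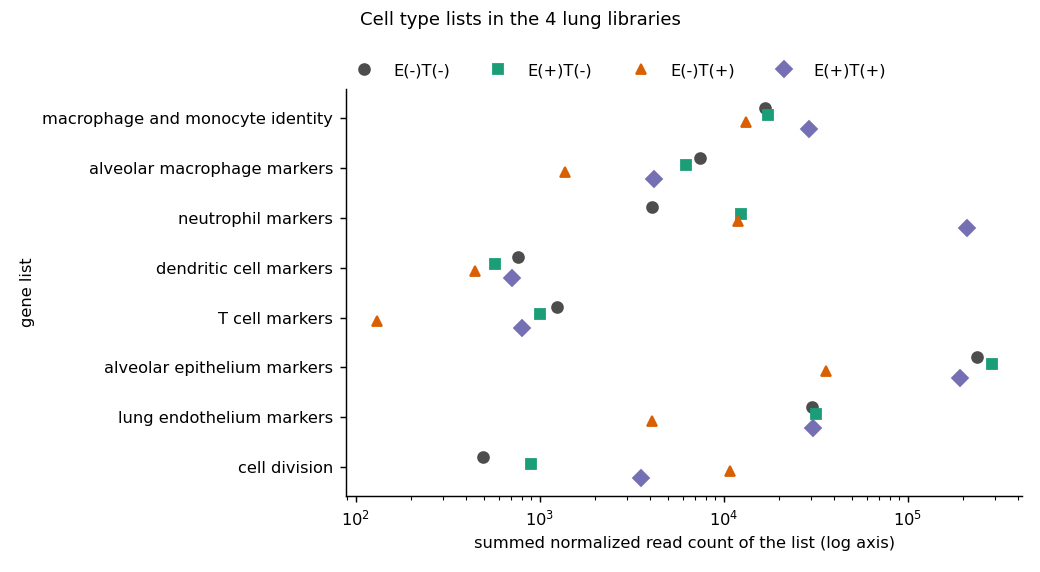
Summed normalized read counts (log axis) of 8 marker lists in the 4 libraries, each symbol 1 library. The macrophage identity list spans 13153 to 29169, the neutrophil list 4076 to 210587, and the alveolar epithelium list 36168 to 286116.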

How the data were processed

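Lung RNA was measured in 4 libraries, 1 per group. The authors prepared them with a QuantSeq 3′ kit, aligned reads with Bowtie2 (mm10, per the submitters' processing notes), counted reads per gene with bedtools and normalized with the quantile method of edgeR. Versions, annotation and strand setting are not given in the sources used here, so overlapping and antisense genes may share reads. The deposited values are log2(normalized count + 1) at 3 decimals, in 23282 rows with 23238 distinct symbols. Whole reads were recovered by inverting the negative binomial quantile step (dispersion 0.3722), which returned 100% of the deposited values within 0.001; 94.6% of the values resolved single reads, and higher ones are known to about 0.035%. The recovery was tested on simulated data.

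Python 3.11.15, NumPy 2.4.6, pandas 2.3.3, SciPy 1.17.1 and matplotlib 3.10.9 were used. Differences are of deposited log2 values, with a limit of 2-fold and a mean normalized count of at least 4. Exact 95% intervals come from the recovered reads scaled by effective library size. There is no test across conditions. Some genes of the set and lists are not reported here. The members and the 17 gene lists were chosen with earlier results of these data known. From each list the text could name up to 3 genes, those of largest difference with tumor at rest and a mean normalized count of at least 50. Genes at 0 reads were named besides these, as were Lyz2, the largest gene of its list, and Itgav, beside Itgb3. For likeness, the 3 nearest genes could be named. Alternatives were the scaling, the pseudocount (4), the minimum (none or 50), the limit (1.5- or 4-fold) and removal of a share of the E(-)T(+) level from E(+)T(-). Symbols were matched to RefSeq tables of GRCm38.p6.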

Additional observations from a re-analysis of the deposited data

Results flagged for a closer look

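In 2 genes exercise went with a higher level in tumor-free lungs and a lower level in tumor-bearing lungs, each beyond counting error, and the difference between these effects was not tested because each group has 1 library. Apoe differed by 0.27 without tumor and by -0.39 with tumor, both under 2-fold. C1qb differed by 0.70 and -1.11, and by 0.50 without tumor when the median share of the cancer control level is taken out of E(+)T(-). For the other 2 C1q chains the difference without tumor was within counting error as deposited, and with the same share taken out it was -0.16 for C1qa and -0.31 for C1qc, both outside their counting intervals. With the lowest share, chosen after seeing the data, it was -0.02 for C1qa and -0.15 for C1qc, both within those intervals.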

How the results depend on the processing

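No paired analysis was possible because each group has 1 library, and for the same reason no replicate could be left out. The number of genes past 2-fold with exercise in tumor-free lungs was 0, and became 1 (C1qb, higher) at a 1.5-fold limit. It was also 1 (Spp1, lower, at -1.05) with the highest share of the cancer control level taken out of E(+)T(-), an alternative chosen after seeing the data. With exercise in tumor-bearing lungs it was 5, and 1 at 4-fold, 7 with library totals alone and 6 with no minimum (Nos2 added). With tumor at rest it was 7, and 6 at 4-fold. With tumor and exercise it was 7, and 4 at 4-fold and with library totals alone, 6 with totals without the hemoglobin genes, where Apoe was at 0.98, and 8 with no minimum, where Nos2 was added as lower. Library totals alone also moved the split over all rows from 3685 higher and 2686 lower to 2450 and 5409 between the tumor-bearing lungs, and from 2259 and 1964 to 1418 and 3684 with tumor and exercise. Of 216 values of single genes under alternatives, 175 moved by less than their counting interval, 41 by more, 17 of them under library totals alone. The 175 include values under the median share in the comparisons that do not use E(+)T(-), which could not move. No value of 2-fold or more changed sign. The sign turned in 5 values under 2-fold: C1qa with exercise in tumor-free lungs under 4 alternatives (from 0.09 to values of -0.29 to -0.003) and Csf1r with exercise in tumor-bearing lungs under library totals alone (-0.16). Removing a share depends on that share being equal for all genes, which was not tested. Depth limits Nos2, with 0 to 6 reads.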

Other observations

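Marco was the single alveolar macrophage marker that was higher in the cancer control, with 42 reads in the normal control, 27 in the normal exercise, 641 in the cancer control and 283 in the cancer exercise lung.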
